A study of Mus musculus with 12 samples.

Results

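Mouse small intestinal organoids, epithelial cultures that grow from intestinal stem cells, were treated with cholic acid (CA) or with its solvent dimethyl sulfoxide (DMSO), and polyadenylated RNA was sequenced. The libraries labelled CA and DMSO, 3 of each, were chosen by their group label and make up 6 of the 12 libraries. All 12 came from wild-type (WT) organoids labelled duodenum and grown in IntestiCult medium. Organoids were cultured for 2 days before the acids were added. The labelled dose is 50 mmol/L, far above what organoids are usually given, so the unit may be wrong, and the labelled exposure is 2 days in the sample fields but 96 hours in the protocol. The other 6 libraries, of organoids given chenodeoxycholic acid (CDCA) or deoxycholic acid (DCA) at the same labelled dose and time, served to estimate the spread and for comparisons between acids. The labels do not tie the libraries to different cultures or mice, and p-values therefore reflect the spread between libraries alone, which may be technical.

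Bile acids are made from cholesterol in the liver, secreted into the duodenum, where they help to dissolve fat, and taken back up mainly in the ileum. CA and CDCA are primary bile acids of the liver, and DCA is made from CA by gut bacteria. CDCA lacks the hydroxyl group that CA carries on ring C of the steroid, and DCA lacks the one on ring B. In enterocytes, the absorptive cells, bile acids bind the farnesoid X receptor (FXR, gene Nr1h4), a nuclear receptor that turns on genes for their binding, export and feedback control.

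Levels are in TPM, transcript abundances scaled to the library total. Differences are CA minus DMSO in log2(TPM + 1), called log2 fold changes here, which understate the change of low genes. Each is given with its 95% confidence interval (CI, or interval) and a p-value from limma, a linear model fitted across genes, adjusted over the 11952 of 32587 gene rows that reached 1 TPM in 3 or more libraries. Read depth is unknown, since TPM keeps none. The 6 libraries summed to between 889156 and 921052 TPM over the rows given. Mitochondrially encoded RNA took 14.0 ± 0.389% of TPM in CA and 17.2 ± 2.74% in DMSO (SD, n = 3 each), and its part in other differences was not tested beyond the fit without these rows described below. The epithelial markers matched the label: Epcam lay between 694 and 828 TPM in the 6 libraries and the villus protein gene Vil1 between 190.0 and 302 TPM. Gata4, a transcription factor of the proximal small intestine, was detected in all of them at 76.9 to 100.2 TPM. Of the 12 duodenal region markers listed, 9 passed the filter and 1 was at 0 in all 6 libraries. For the 12 ileal region markers listed these numbers were 7 and 1, so the counts do not tell the regions apart. Markers of other cell types were low. The 13 mesenchymal markers summed to between 3.90 and 5.58 TPM in CA and between 6.41 and 7.67 TPM in DMSO, and 2 of them were at 0 in all 6 libraries. The 15 immune markers summed to 3.65 to 4.28 TPM in CA and 2.59 to 4.95 TPM in DMSO, with 4 at 0 in all 6. The 13 endothelial, glial and neuronal markers summed to 5.78 to 6.89 TPM in CA and 5.85 to 7.44 TPM in DMSO, also with 4 at 0.

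A small set of genes was higher with CA and 1 was lower. Of the 11952 genes, 69 passed a limma adjusted p of 0.05, or 0.577%, of which 68 were higher with CA (0.569%) and 1 was lower (0.00837%). At an unadjusted p under 0.05 in limma, 1351 genes were higher (11.3%) and 412 lower (3.45%). The counts of list members given below are to be read beside these shares. The median log2 fold change of the 68 higher genes was 0.76, against 0.03 over all genes tested. Of the 68, 24 had a log2 fold change of at least 1 and 15 lay under 0.5. In each of the 68, every CA library lay above every DMSO library, which held for 11.8% of all genes tested. The 68 were chosen by these same values, so their lack of overlap adds no support. The plot of the 69 genes shows a few large differences, mostly in bile acid genes, and a long series of modest ones.

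**Figure D1:**
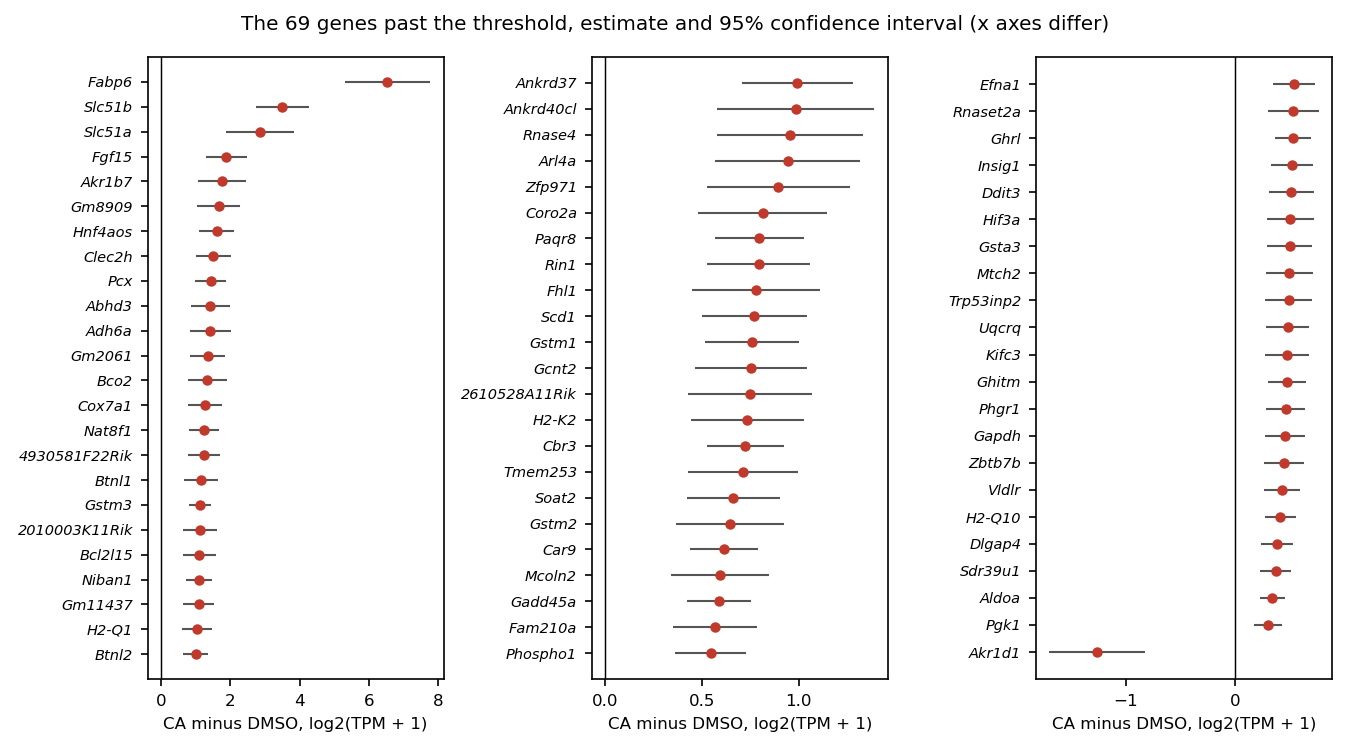
Estimates of CA minus DMSO in log2(TPM + 1), as points with bars for the 95% confidence interval, for the 69 genes past a limma adjusted p of 0.05. The x axes of the panels differ: Fabp6 reaches 6.53, Pgk1 is the smallest rise at 0.30, and Akr1d1 is the gene below 0.

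Transcripts for the intracellular binding and export of bile acids gave the largest differences. Fabp6 encodes the cytosolic protein that carries bile acids through the enterocyte. Its level was 306, 138 and 275.5 TPM in CA replicates 1, 2 and 3, and 1.30, 2.31 and 0.971 TPM in DMSO replicates 1, 2 and 3. The lowest CA library was far above the highest DMSO library, and CA replicate 2 was the lowest of the CA libraries. The log2 fold change was 6.53 (CI 5.30 to 7.76, limma adjusted p = 0.00466). Slc51a and Slc51b encode the subunits of the heteromeric exporter that passes bile acids across the basolateral membrane towards the blood. Slc51b stood at 49.1, 31.8 and 55.7 TPM with CA and at 4.11, 3.13 and 2.06 TPM with DMSO (log2 fold change 3.50, interval 2.73 to 4.27, limma adjusted p = 0.00466). Slc51a stood at 31.0, 18.6 and 28.0 TPM with CA and at 4.64, 2.09 and 1.71 TPM with DMSO (log2 fold change 2.86, interval 1.88 to 3.85, limma adjusted p = 0.026). For both subunits CA replicate 2 was again the lowest of its group, DMSO replicate 1 the highest of its own, and the groups did not overlap.

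Differences in the remaining carriers were smaller. Of 12 carrier genes listed, 9 passed the filter and 3 rose, which were Fabp6, Slc51a and Slc51b, and no other carrier passed the threshold. The median log2 fold change of the 9, with these 3 included, was 0.50. At an unadjusted limma p under 0.05, 6 of the 9 were higher, the same 3 included, and 0 lower. Slc10a2, the apical importer of the ileum, stayed below the filter at no more than 0.822 TPM in any library. Abcc2, an apical efflux pump of organic anions, was at 74.0, 69.5 and 83.7 TPM with CA and 54.1, 45.0 and 54.8 TPM with DMSO. Its groups did not overlap, but the difference of 0.55 (CI 0.26 to 0.85) had a limma adjusted p of 0.0945. The basolateral pump gene Abcc3 differed by 0.27 (CI 0.01 to 0.52, limma adjusted p = 0.317), and Slco2b1, an organic anion importer, by 0.50 (CI 0.05 to 0.96, limma adjusted p = 0.289).

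The feedback hormone of the gut rose as well. Fgf15 encodes a secreted growth factor that restrains bile acid synthesis in the liver. It was at 9.61, 7.41 and 11.9 TPM with CA and at 1.88, 1.93 and 1.72 TPM with DMSO (log2 fold change 1.88, interval 1.29 to 2.47, limma adjusted p = 0.0135). The DMSO libraries lay close together and every CA library was well above them. Nr0b2, which encodes the repressor SHP, another FXR target, was at 3.46, 1.53 and 2.64 TPM with CA against 1.77, 1.41 and 1.22 TPM with DMSO. CA replicate 2 fell inside the DMSO range, and the difference of 0.49 (CI 0.04 to 0.94) had a limma adjusted p of 0.295. Among 14 known FXR targets in the list, 8 were abundant enough to test and 4 rose, which were Fabp6, Slc51b, Slc51a and Fgf15. These 4 are also counted in the lists of carriers or of receptors and FXR feedback. Their log2 fold changes were 1.88 or more, while the rest lay between 0.01 and 0.55 and did not pass. The median of the 8, 1.22 against 0.03 over all genes, falls in the gap between and describes no single member. At an unadjusted limma p under 0.05, 6 of the 8 were higher and 0 lower. Nr0b2 was the tested target with the lowest level, and the nearest untested one, the bile acid ligase gene Slc27a5, reached 0.690 TPM in its highest library.

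No receptor gene passed in the fit of all 12 libraries. The gene for FXR, Nr1h4, was at 30.8, 23.1 and 29.6 TPM with CA and 25.9, 16.2 and 16.9 TPM with DMSO, a difference of 0.50 (CI 0.03 to 0.97, limma adjusted p = 0.313) with overlapping groups. Nr1i3, the constitutive androstane receptor, was at 36.3, 27.6 and 35.6 TPM with CA against 20.1, 18.9 and 17.5 TPM with DMSO. These groups did not overlap, and the difference of 0.78 (CI 0.35 to 1.20) had a limma adjusted p of 0.0995. Nr1i3 passed when just the 6 CA and DMSO libraries were fitted and with CDCA replicate 3 left out (limma adjusted p = 0.0381 and 0.00587). Nr1h4 passed in 1 of 15 alternative fits, with CDCA replicate 3 and DMSO replicate 1 left out (limma adjusted p = 0.00564). DMSO replicate 1 held the highest DMSO level of Nr1h4, so leaving it out raises the difference, and nothing is read from that pass. Nr1i2, the pregnane X receptor, differed by 0.28 (CI 0.06 to 0.50, limma adjusted p = 0.224). Gpbar1, the membrane bile acid receptor, was nearly undetected at no more than 0.0751 TPM. Of 12 tested genes for receptors and FXR feedback, 1 rose, Fgf15, and at an unadjusted limma p under 0.05 there were 5 higher and 0 lower.

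**Figure D2:**
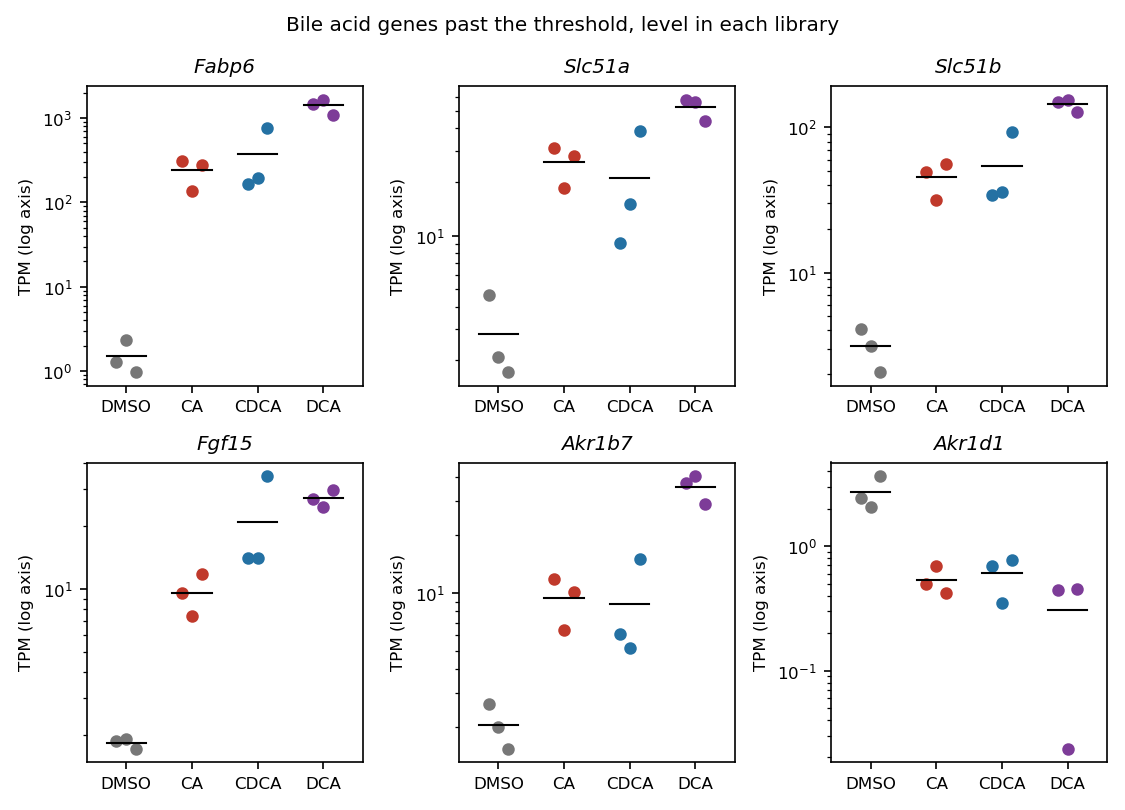
Level in TPM on a log axis of Fabp6, Slc51a, Slc51b, Fgf15, Akr1b7 and Akr1d1 in the 3 libraries of each group (points, in replicate order from left to right) with the group mean (line). CA libraries lie above DMSO libraries for the first 5 genes and below them for Akr1d1. CDCA replicate 3 lies apart from CDCA replicates 1 and 2 in Fabp6, where it reached 755.5 TPM against 164 and 197 TPM.

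The upstream sequences of the genes with the largest rises are shown because FXR is known to bind, with its partner RXR, an inverted repeat of GGTCA with 1 base between the repeats (IR-1, GGTCANTGACC, which reads the same on both strands). The sequences are the 250 bases before the annotated start, 5′ to 3′ on the strand of the gene, from RefSeq on GRCm38.p6, a build other than that of the expression files. Capitals mark matches with at most 2 mismatches among the 10 fixed letters.
Fabp6, chr11:43601563-43601812, minus strand: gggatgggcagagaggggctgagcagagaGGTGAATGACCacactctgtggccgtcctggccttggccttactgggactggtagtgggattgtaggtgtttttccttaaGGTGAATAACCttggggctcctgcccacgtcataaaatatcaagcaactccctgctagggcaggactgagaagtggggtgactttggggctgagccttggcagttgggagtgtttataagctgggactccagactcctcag
Slc51b, chr9:65422774-65423023, minus strand: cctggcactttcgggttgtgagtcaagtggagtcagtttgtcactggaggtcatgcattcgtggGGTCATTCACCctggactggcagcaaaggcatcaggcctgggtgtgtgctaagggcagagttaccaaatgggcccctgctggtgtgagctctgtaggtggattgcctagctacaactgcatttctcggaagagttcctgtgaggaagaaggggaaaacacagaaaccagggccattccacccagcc

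Substitutions are counted from position 1 at the 5′ end of the repeat, with the repeat's base first. The Fabp6 stretch held GGTGAATGACC 221 bases before the start, with C4G as its 1 mismatch, and GGTGAATAACC 141 bases before it, with C4G and G8A. The Slc51b stretch held GGTCATTCACC 186 bases before the start, with G8C. The Slc51a promoter held no match of these letters, and Fgf15 had no entry in the table used. Windows of 300 bases, from 250 before to 50 after the start, were searched for all 32851 promoters. Of these, 0.758% held a match with at most 1 mismatch and 10.7% one with at most 2. Of the 69 genes past the threshold, 58 had an entry, with 80 promoters in all, of which 12 held a match with at most 2 mismatches. Counted by gene, with the best promoter of each, 11 of the 58 held such a match. The genes with at most 1 mismatch numbered 3, which were Fabp6, Slc51b and Pcx. Pcx held its match after the start, and another of its promoters held none. The shares over all promoters count promoters, not genes, so the gene counts cannot be set directly against them. A match is a description of the letters, and binding of FXR to it was not tested.

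Akr1d1 was the 1 gene that fell. It encodes the steroid 5-beta-reductase, a liver enzyme that saturates the sterol ring during bile acid synthesis. It was at 0.498, 0.690 and 0.418 TPM with CA and at 2.46, 2.05 and 3.66 TPM with DMSO, so the groups did not overlap, but levels were low (log2 fold change -1.26, interval -1.70 to -0.82, limma adjusted p = 0.0202). It reached 1 TPM in the 3 DMSO libraries and in none of the other 9, so it met the filter only through the group in which it was high, and the call is not independent of that. The call was lost with a pseudocount of 0.1, where the difference was -2.13 and 77 genes were higher and 0 lower in limma, and without any 1 CA library or without DMSO replicate 2. The other tested genes of bile acid synthesis and conjugation, 8 of them, did not pass in either direction. Among these, Acox2, a peroxisomal oxidase that shortens the side chain, was at 13.7, 9.31 and 10.6 TPM with CA against 7.72, 7.16 and 5.60 TPM with DMSO (difference 0.63, CI 0.32 to 0.95, limma adjusted p = 0.0676). Cyp27a1, the sterol 27-hydroxylase, was at 1.02 to 1.77 TPM with CA and 1.19 to 2.70 TPM with DMSO (difference -0.33, CI -0.88 to 0.22, limma adjusted p = 0.582).

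Of 36 tested phase II enzymes, which attach glutathione, sulfate, sugar or other groups to acids, steroids and drugs, 4 rose (median 0.31), and the 4 were all glutathione transferases. At an unadjusted limma p under 0.05, 19 of the 36 were higher and 1 lower. Gstm3 was at 919, 764 and 836 TPM with CA and 504, 331 and 334 TPM with DMSO (log2 fold change 1.13, interval 0.80 to 1.46, limma adjusted p = 0.00903). Gstm2 was at 94.0, 91.9 and 97.7 TPM with CA and 72.8, 56.9 and 52.3 TPM with DMSO (log2 fold change 0.64, limma adjusted p = 0.0481). Gstm1 rose by 0.76 from a similarly high level as Gstm3 (limma adjusted p = 0.0135), and Gsta3, of another class, by 0.50 (limma adjusted p = 0.0389). In all 4 genes DMSO replicate 1 was the highest DMSO library. The Gstm genes are near-identical in places, so how reads were shared among them is uncertain.

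Among 34 tested aldo-keto, alcohol and aldehyde oxidoreductases, 3 rose and Akr1d1 fell (median 0.21). Akr1b7, an aldose reductase-like enzyme that acts on lipid aldehydes and bile acids, was at 11.8, 6.44 and 10.1 TPM with CA and 2.63, 2.01 and 1.55 TPM with DMSO (log2 fold change 1.75, limma adjusted p = 0.0366). Cbr3, a carbonyl reductase, showed a tight spread, at 42.1, 40.5 and 47.2 TPM with CA and 28.8, 25.2 and 23.6 TPM with DMSO (log2 fold change 0.72, interval 0.53 to 0.92, limma adjusted p = 0.00903). Adh6a, an alcohol dehydrogenase, was at 78.3, 51.9 and 65.1 TPM against 31.1, 16.2 and 25.2 TPM (log2 fold change 1.42, limma adjusted p = 0.0479). CA replicate 2 was the lowest CA library in all 3 genes.

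No cytochrome P450 of drug metabolism passed the test. Of 24 tested in limma, 10 were higher and 1 lower at an unadjusted p under 0.05, and 20 of the 24 estimates were above 0 (median 0.43). The median was 0.27 without CA replicate 1 and 0.15 without DMSO replicate 2. Cyp3a11, a P450 of the mouse liver and gut that can hydroxylate bile acids, was at 106, 61.9 and 83.2 TPM with CA and 89.1, 38.3 and 61.9 TPM with DMSO. The groups overlapped, and the interval of the difference ran from -0.37 to 1.26. Por, the reductase that supplies P450 enzymes with electrons, was at 161, 110.1 and 141 TPM with CA and 94.8, 86.4 and 95.3 TPM with DMSO, without overlap (difference 0.55, limma adjusted p = 0.0985). The carboxylesterases, 8 tested, had 2 genes higher at an unadjusted p under 0.05 and 0 past the adjusted threshold in limma. Ces1f had the largest of their differences at 1.61 (CI 0.56 to 2.65, limma adjusted p = 0.163), and the median of the 8 was 0.46, or 0.70 without DMSO replicate 1.

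Some glycolytic and hypoxia-inducible genes rose, by small amounts with little spread. Of 34 tested members 5 rose, 24 were higher and 0 lower at an unadjusted limma p under 0.05, and in 26 every CA library lay above every DMSO library. Over all genes tested, 11.3% were higher and 3.45% lower at that p. In 11.8% of them every CA library lay above every DMSO library. Car9, a membrane carbonic anhydrase and a classical hypoxia-inducible gene, was at 258, 267 and 267 TPM with CA and 170, 171 and 175 TPM with DMSO (log2 fold change 0.62, interval 0.44 to 0.79, limma adjusted p = 0.00903). Ankrd37, also hypoxia-inducible, was at 142, 129 and 137 TPM against 77.6, 62.2 and 64.7 TPM (log2 fold change 0.99, interval 0.71 to 1.28, limma adjusted p = 0.00903). The CA libraries were within a narrow range for both genes, and CA replicate 2 was not set apart in Car9. The glycolytic enzymes Gapdh, Aldoa and Pgk1 rose by 0.45, 0.34 and 0.30 (limma adjusted p = 0.0382, 0.019 and 0.0481). Pgk1 was at 1314, 1399 and 1409 TPM with CA and 1216, 1076 and 1061 TPM with DMSO. The median of the list was 0.29, and per library it was 0.288, 0.289 and 0.333 in CA and 0.0283, -0.0865 and 0.0378 in DMSO. Hif3a, a hypoxia-inducible factor subunit that was not in this list, was at 4.12, 3.99 and 4.39 TPM against 2.64, 2.88 and 2.43 TPM (log2 fold change 0.50, limma adjusted p = 0.0477).

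Pcx, pyruvate carboxylase, which feeds carbon into the citrate cycle and gluconeogenesis, rose from 3.73, 3.02 and 3.54 TPM to 15.3, 7.98 and 10.5 TPM (log2 fold change 1.43, interval 0.98 to 1.88, limma adjusted p = 0.0135). The DMSO libraries were close together and the CA libraries were spread, with replicate 1 the highest. It was the 1 of 19 tested genes of gluconeogenesis and fructose metabolism to pass (median 0.45, and 0.28 without CA replicate 1). Gpt, alanine aminotransferase, was at 32.0, 24.7 and 29.0 TPM against 18.6, 16.5 and 12.8 TPM (difference 0.81, limma adjusted p = 0.0956).

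Genes of lipid and cholesterol handling rose in part. Soat2, which esterifies cholesterol in enterocytes, was at 42.6, 39.7 and 41.7 TPM with CA and 28.5, 23.3 and 25.7 TPM with DMSO (log2 fold change 0.66, interval 0.42 to 0.90, limma adjusted p = 0.025). Insig1, which holds back the activation of sterol synthesis, was at 165, 151 and 158 TPM against 122, 100.3 and 109 TPM (log2 fold change 0.52, limma adjusted p = 0.026). They were the 2 of 30 tested cholesterol genes that passed. At an unadjusted limma p under 0.05, 14 of the 30 were higher and 0 lower, and the list median was 0.19. Scd1, the stearoyl-CoA desaturase, which was in no list, was at 155, 142 and 137 TPM against 88.3, 76.4 and 88.8 TPM (log2 fold change 0.77, interval 0.50 to 1.04, limma adjusted p = 0.0205). Abhd3, a phospholipase, was at 28.0, 23.3 and 33.1 TPM against 11.3, 7.92 and 10.3 TPM (log2 fold change 1.42, limma adjusted p = 0.0343). All 3 CA libraries were above all 3 DMSO libraries in these genes. Of 20 tested genes for fat absorption and chylomicron assembly, 0 passed in limma and 11 were higher at an unadjusted p under 0.05 (median 0.50). Of 28 genes for fatty acid oxidation, 0 passed and 7 were higher at an unadjusted p (median 0.19, and 0.11 without DMSO replicate 2). Bco2, a mitochondrial enzyme that cleaves carotenoids, was at 24.8, 16.4 and 22.6 TPM against 11.9, 5.99 and 6.40 TPM (log2 fold change 1.33, limma adjusted p = 0.0477), 1 of 11 tested genes of carotenoid and retinol handling to pass.

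Some stress genes rose. In the integrated stress response, the pathway through which cells slow translation and induce repair genes, 3 of 24 tested members rose (median 0.16), and at an unadjusted limma p under 0.05 there were 11 higher and 0 lower. Ddit3, which encodes the transcription factor CHOP, was at 38.6, 36.7 and 40.6 TPM with CA and 28.3, 25.9 and 26.2 TPM with DMSO (log2 fold change 0.51, interval 0.31 to 0.72, limma adjusted p = 0.0343). Niban1, a stress-responsive regulator of translation, was at 8.54, 8.78 and 8.35 TPM against 5.25, 3.23 and 2.39 TPM (log2 fold change 1.09, interval 0.72 to 1.47, limma adjusted p = 0.019). Vldlr, a lipoprotein receptor, was at 21.5, 21.9 and 20.8 TPM against 15.8, 15.8 and 15.5 TPM (log2 fold change 0.43, limma adjusted p = 0.0277). In these 3 genes the CA libraries lay close together, CA replicate 2 included. Trib3, a pseudokinase downstream of CHOP, was at 32.1, 32.3 and 30.5 TPM against 25.5, 21.1 and 19.4 TPM and did not pass (difference 0.52, limma adjusted p = 0.0612). Chaperones of the endoplasmic reticulum had 0 of 23 past the limma threshold, 11 higher and 1 lower at an unadjusted p under 0.05, and a median of 0.15 (0.23 without DMSO replicate 3). Of these, Manf, a secreted stress factor, differed by 0.27 (limma adjusted p = 0.0948).

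Growth arrest and death genes were mixed. Gadd45a, induced by DNA damage and other stress, was at 45.3, 42.2 and 45.4 TPM with CA against 30.6, 28.7 and 28.1 TPM with DMSO (log2 fold change 0.59, interval 0.42 to 0.75, limma adjusted p = 0.00903). Cdkn1a, the cell cycle inhibitor p21, was at 208, 184 and 204 TPM against 156, 139 and 140.0 TPM without overlap, and did not pass (difference 0.45, limma adjusted p = 0.0631). Bcl2l15, a member of the Bcl-2 family, was at 9.99, 7.80 and 8.12 TPM against 5.39, 3.34 and 2.20 TPM (log2 fold change 1.10, limma adjusted p = 0.0493). It was the 1 of 25 tested p53 targets and apoptosis genes that passed, and 12 of the 25 estimates were above 0 and 13 below.

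Btnl1, a butyrophilin-like protein with which enterocytes sustain intraepithelial T cells, was at 60.4, 39.0 and 51.1 TPM with CA and 28.6, 16.7 and 20.9 TPM with DMSO (log2 fold change 1.16, interval 0.68 to 1.64, limma adjusted p = 0.0438). Btnl2, of the same family, was at 15.9, 10.8 and 13.0 TPM against 5.67, 5.37 and 7.22 TPM (log2 fold change 1.00, interval 0.64 to 1.37, limma adjusted p = 0.025). Clec2h, a C-type lectin-like gene, rose by 1.51 from 28.9, 21.2 and 18.0 TPM to 79.9, 54.6 and 64.3 TPM (limma adjusted p = 0.0186). The groups did not overlap in any of them. These genes and the class I genes that follow were grouped after their values were seen. The class I histocompatibility genes H2-Q1, H2-K2 and H2-Q10 rose by 1.04, 0.73 and 0.41 (limma adjusted p = 0.0406, 0.0343 and 0.0202), and the class I-like predicted gene Gm8909 by 1.66 (limma adjusted p = 0.0288). H2-Q10 was at 137, 133 and 126 TPM with CA and 96.5, 97.1 and 104 TPM with DMSO. These genes have near-identical copies, so their single values are uncertain. In the list of interferon response and antigen presentation genes, which does not hold them, 0 of 18 passed in limma and 4 were higher at an unadjusted p under 0.05 (median 0.21). Of 17 NF-kB and inflammatory genes 0 passed and 8 were higher at an unadjusted limma p under 0.05. Il18, an epithelial interleukin, was at 30.4, 21.7 and 31.9 TPM with CA and 16.4, 6.45 and 7.23 TPM with DMSO, with DMSO replicate 1 set apart from the other DMSO libraries (difference 1.49, limma adjusted p = 0.0821, and 1.87 with limma adjusted p = 0.0179 without DMSO replicate 1).

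Genes of mitochondrial proteins encoded in the nucleus had slightly higher estimates, while those encoded in the mitochondrion had lower estimates. Uqcrq, a subunit of complex III, was at 396, 448 and 454 TPM with CA and 292, 279 and 365 TPM with DMSO (log2 fold change 0.48, limma adjusted p = 0.0438), the 1 of 35 tested nuclear genes of oxidative phosphorylation to pass. All 35 estimates were above 0, 18 had an unadjusted limma p under 0.05, and the median was 0.16, or 0.09 without DMSO replicate 2 and 0.08 once rRNA and mitochondrial rows were removed before rescaling. Cox7a1, a subunit of cytochrome c oxidase that was not in the list, was at 91.8, 63.5 and 60.8 TPM against 37.7, 31.3 and 19.8 TPM (log2 fold change 1.28, limma adjusted p = 0.0329). The mitochondrial membrane proteins Mtch2 and Ghitm rose by 0.49 and 0.47 (limma adjusted p = 0.0481 and 0.025). Of 13 mitochondrially encoded genes 0 passed in limma, 6 were lower at an unadjusted p under 0.05, and the median was -0.24 (-0.14 and -0.36 without DMSO replicates 2 and 3). DMSO replicate 2 had the highest share of mitochondrial RNA, 20.1% of TPM.

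Markers of absorptive cells had higher estimates and those of stem and dividing cells lower ones, but none of them passed. In bulk RNA, fewer cells of a type and less RNA per cell cannot be told apart. All 25 estimates of enterocyte markers were above 0, 13 had an unadjusted limma p under 0.05, 0 passed after adjustment, and the median was 0.64. Krt20, a keratin of the villus, was at 109, 74.9 and 97.9 TPM with CA and 55.9, 34.6 and 37.9 TPM with DMSO (difference 1.13, CI 0.59 to 1.67, limma adjusted p = 0.0654). Alpi, intestinal alkaline phosphatase, was at 103, 54.2 and 68.7 TPM against 48.0, 31.0 and 48.8 TPM, and Sis, sucrase-isomaltase, at 464, 316 and 457 TPM against 371, 171 and 216 TPM (differences 0.79 and 0.76, limma adjusted p = 0.231 and 0.349). For Sis the groups overlapped, since DMSO replicate 1 lay above CA replicate 2. Of 19 brush border hydrolases, 10 were higher at an unadjusted limma p under 0.05 and 0 passed (median 0.67).

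Of 22 stem cell markers 0 passed and 8 were lower at an unadjusted limma p under 0.05 (median -0.42, and -0.19 to -0.66 with single libraries left out, the ends without DMSO replicates 3 and 1). Olfm4 was at 87.8, 159 and 83.9 TPM with CA and at 161, 346 and 446 TPM with DMSO (difference -1.46, CI -2.62 to -0.30, limma adjusted p = 0.233). CA replicate 2 and DMSO replicate 1 were nearly level, and the other libraries were well apart. Lgr5, a Wnt-pathway receptor of crypt base stem cells, was at 39.4, 56.9 and 48.2 TPM against 52.3, 67.6 and 84.1 TPM (difference -0.48, limma adjusted p = 0.304). Of 32 genes of S phase and DNA replication all estimates were below 0, 14 had an unadjusted limma p under 0.05 and 0 passed (median -0.37). In 20 of these 32 every CA library lay below every DMSO library, against 5.21% of all genes tested. The list median ran from -0.27 to -0.53 with single libraries left out, the ends without DMSO replicates 3 and 1. Relative to the DMSO mean, the S phase median of DMSO replicate 1 was -0.314. That lay among CA replicates 1, 2 and 3 at -0.423, -0.27 and -0.433. Of 30 genes of mitosis 10 were lower at an unadjusted limma p under 0.05 and 0 passed (median -0.24, and -0.13 without DMSO replicate 3). Mki67, the general marker of dividing cells, was at 24.1, 25.0 and 23.9 TPM against 23.9, 26.7 and 34.6 TPM, with overlapping groups (difference -0.20, CI -0.51 to 0.11, limma adjusted p = 0.562).

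DMSO replicate 1 lay among the CA libraries in the enterocyte, stem cell, S phase and mitosis lists. In the FXR targets it was the DMSO library nearest to the CA libraries but well below. Its enterocyte median was 0.409 relative to the DMSO mean, between CA replicate 2 at 0.310 and CA replicate 3 at 0.662, while DMSO replicates 2 and 3 were at -0.314 and -0.135. Its stem cell median was -0.373, between CA replicate 1 at -0.432 and CA replicate 2 at -0.206. For the FXR targets it was at 0.127 against 1.00 to 1.44 in the CA libraries, and for glycolysis and hypoxia genes at 0.0283 against 0.288 to 0.333. The plot of list medians by library shows the groups apart in most of the upper lists. They overlap for the bile acid carriers, with CA replicate 2 at 0.218 and DMSO replicate 1 at 0.246. The groups are also mixed in the drug metabolism, gluconeogenesis, absorption, stem cell, S phase, mitosis and Paneth cell lists.

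**Figure D3:**
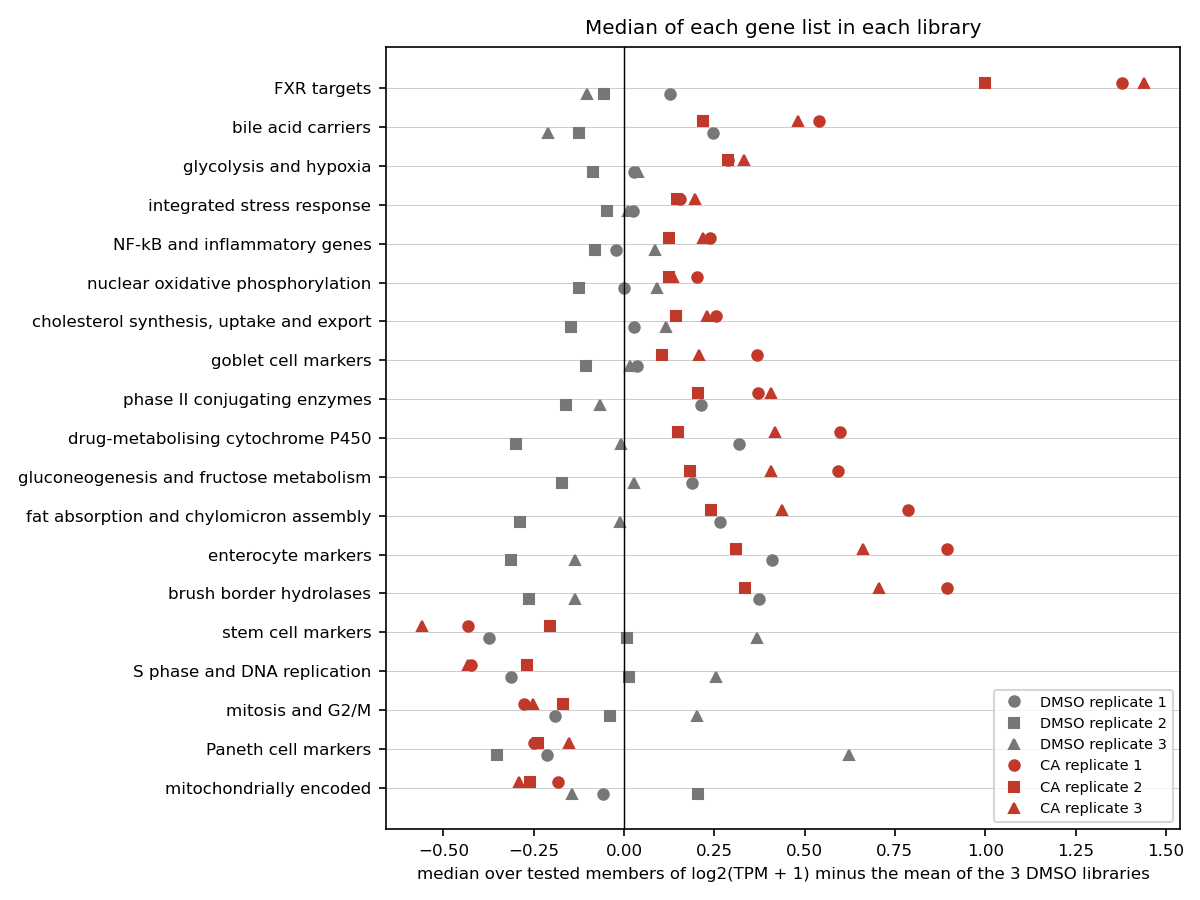
Median over the tested members of each gene list of log2(TPM + 1) minus the mean of the 3 DMSO libraries, for each CA library (red) and each DMSO library (grey), with a marker shape for each replicate number. CA and DMSO libraries do not overlap for FXR targets, glycolysis and hypoxia or the integrated stress response, whereas DMSO replicate 1 lies among the CA libraries for enterocyte markers, brush border hydrolases and stem cell markers.

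Few markers of secretory lineages passed. Ghrl, the ghrelin gene of enteroendocrine cells, was at 300, 282 and 266 TPM with CA and 197, 192 and 198 TPM with DMSO (log2 fold change 0.53, interval 0.36 to 0.69, limma adjusted p = 0.0135). The DMSO libraries were nearly equal and all CA libraries were above them. It was the 1 of 23 tested enteroendocrine markers that passed, and the list median was 0.00. Chga, a granule protein gene common to these cells, differed by 0.10 (CI -0.10 to 0.30, limma adjusted p = 0.661). Of 18 goblet cell markers 0 passed and 7 were higher at an unadjusted limma p under 0.05 (median 0.24, and 0.15 without DMSO replicate 2). Muc2, the main mucin, was at 50.0, 37.3 and 47.5 TPM against 34.9, 29.5 and 39.1 TPM (difference 0.37, limma adjusted p = 0.216), and Zg16, a secreted lectin of the mucus, at 171, 131.5 and 137 TPM against 86.9, 91.0 and 51.2 TPM (difference 0.96, CI 0.54 to 1.39, limma adjusted p = 0.0536). Zg16 groups did not overlap. Of 19 Paneth cell markers 0 passed and 1 was lower at an unadjusted limma p under 0.05. Their median was -0.24 but 0.05 without DMSO replicate 3, in which Lyz1, the Paneth lysozyme, was at 528 TPM against 282 to 337 TPM in the other 5 libraries. Of 10 tuft cell markers 0 passed and 0 were past an unadjusted limma p of 0.05.

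The remaining genes that rose belong to no list. Hnf4aos, a transcript antisense to the hepatocyte nuclear factor gene Hnf4a, was at 7.37, 4.27 and 5.46 TPM with CA against 1.17, 1.74 and 0.701 TPM with DMSO (log2 fold change 1.61, limma adjusted p = 0.0135). The library kit kept strand, but whether the authors' quantification used it is not given in the sources used here, so reads of Hnf4a and its antisense partner may not be told apart. Paqr8, a membrane progesterone receptor, was at 10.7, 9.68 and 10.01 TPM against 5.55, 4.60 and 6.14 TPM (log2 fold change 0.80, interval 0.57 to 1.02, limma adjusted p = 0.00903). Rin1, a Ras effector, was at 19.0, 23.2 and 19.1 TPM against 11.1, 13.3 and 9.76 TPM (log2 fold change 0.79, limma adjusted p = 0.019). In Rin1 CA replicate 2 was the highest library, unlike in the bile acid genes. Nat8f1, an N-acetyltransferase, was at 21.6, 16.7 and 23.0 TPM against 6.02, 10.5 and 8.07 TPM (log2 fold change 1.24, limma adjusted p = 0.0205).

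Further genes that rose, with log2 fold changes in parentheses, were the secreted ribonuclease Rnase4 (0.96), the small GTPase Arl4a (0.94), the zinc finger gene Zfp971 (0.89), the coronin Coro2a (0.81), the LIM protein gene Fhl1 (0.78) and the glycosyltransferase Gcnt2 (0.75). Rnase4 was at 122, 86.8 and 104 TPM with CA and 46.2, 45.6 and 69.5 TPM with DMSO, and Ang, which shares a locus with it, at 26.3, 27.3 and 26.7 TPM against 14.6, 14.2 and 22.5 TPM without passing (difference 0.64, limma adjusted p = 0.0654, or 0.00958 without DMSO replicate 3). Fhl1 was the least abundant of the genes that rose, at 1.47, 1.42 and 1.62 TPM against 0.733, 0.457 and 0.222 TPM, and it reached 1 TPM only in the CA and DCA libraries, so it too met the filter only through groups in which it was high. Also higher were Ankrd40cl (0.98) and Tmem253 (0.71). Smaller rises were found in the ion channel gene Mcoln2 (0.59), the mitochondrial protein gene Fam210a (0.57), the phosphatase gene Phospho1 (0.54), the ephrin gene Efna1 (0.54), Rnaset2a (0.53), the autophagy gene Trp53inp2 (0.49), the kinesin gene Kifc3 (0.47), Phgr1 (0.46), the transcription factor gene Zbtb7b (0.45), Dlgap4 (0.38) and Sdr39u1 (0.37). The other 5 were the predicted or clone-named genes Gm2061 (1.35), 4930581F22Rik (1.23), 2010003K11Rik (1.12), Gm11437 (1.09) and 2610528A11Rik (0.75), on which no function is given here.

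CA and CDCA, the primary acids, were compared directly, as were CA and DCA, which makes 2 pairs, each adjusted over all genes. Both share the CA libraries, and the values of the 3 acids against DMSO share the DMSO libraries. Between CDCA and CA 4 of 11952 genes passed in limma (0.0335%), 1 higher and 3 lower with CDCA, and 861 had an unadjusted p under 0.05 (7.2%). Cyp24a1, the vitamin D 24-hydroxylase, was listed at 0 in all 3 CA libraries and at 0, 0 and 0.668 TPM in DMSO, and stood at 5.59, 5.05 and 6.08 TPM with CDCA and 5.83, 5.28 and 6.60 TPM with DCA. The CDCA minus CA difference was 2.71 in log2(TPM + 1) (CI 2.31 to 3.12, limma adjusted p = 3.1e-05). The gene reached 1 TPM in the 6 CDCA and DCA libraries alone and so met the filter only through groups in which it was high. An exact 0 in such files can be a failed estimate, so no fold is given. Gcg, the proglucagon gene, was at 337, 265.5 and 289 TPM with CA and 139, 173 and 156 TPM with CDCA (difference -0.93, CI -1.16 to -0.70, limma adjusted p = 0.0042). Its DMSO libraries, at 343, 276 and 317 TPM, overlapped those of CA. Zg16 was at 37.3, 47.3 and 55.9 TPM with CDCA, below all CA libraries (difference -1.63, CI -2.06 to -1.20, limma adjusted p = 0.0066). Lgals2, a galectin of the epithelium, was at 2179, 2080.0 and 2055 TPM with CA and 1618, 1524 and 1464 TPM with CDCA (difference -0.46, CI -0.57 to -0.34, limma adjusted p = 0.0042). With DCA, Gcg was at 144, 146 and 139 TPM, Zg16 at 55.9, 57.5 and 57.4 TPM and Lgals2 at 1597, 1581 and 1633 TPM (DCA minus CA -1.05, -1.34 and -0.39, limma adjusted p = 0.00042, 0.003 and 0.0019). In a fit of only the 6 libraries compared, Gcg and Lgals2 no longer passed in limma (adjusted p = 0.0651 and 0.0689). Lgals2 also did not with the trend and robust options off (limma adjusted p = 0.102). Zg16 did not without CA replicate 1, without the filter on low values and under median-ratio scaling (limma adjusted p = 0.0596, 0.0536 and 0.0811).

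**Figure D4:**
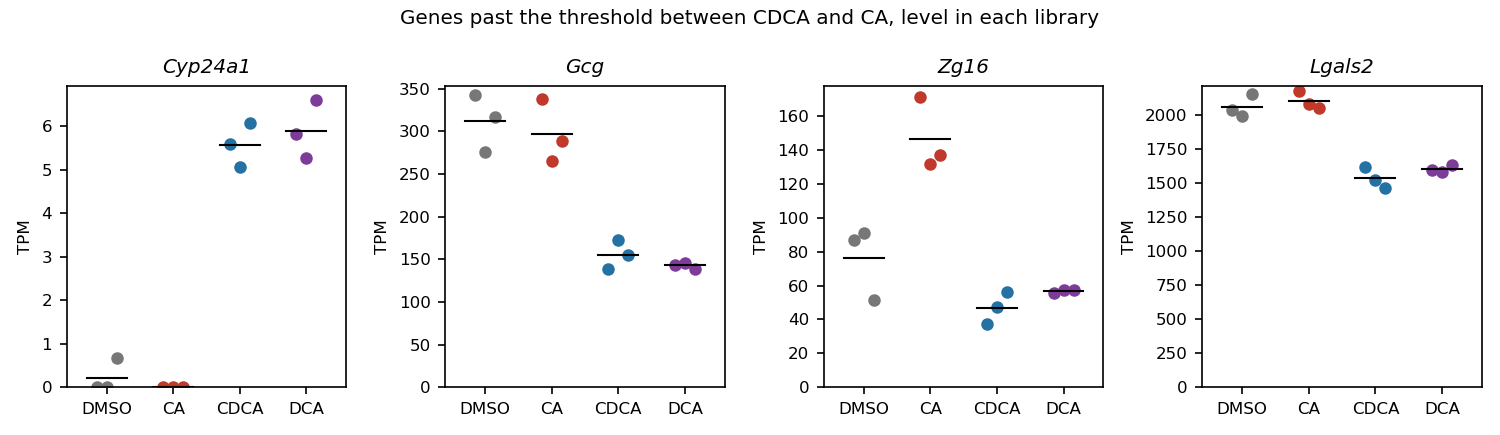
Level in TPM of Cyp24a1, Gcg, Zg16 and Lgals2, the 4 genes past a limma adjusted p of 0.05 between CDCA and CA, in the 3 libraries of each group (points) with the group mean (line). Cyp24a1 is listed at 0 in all CA libraries, and the CDCA and DCA libraries lie below the CA libraries in the other 3 genes.

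At an unadjusted limma p under 0.05, 6 of the 68 genes higher with CA were higher and 18 lower with CDCA than with CA. After adjustment 0 differed, the smallest adjusted p being 0.0608 for Ghrl (difference -0.46, CI -0.63 to -0.30). That does not show that the acids act alike. The CDCA minus CA interval ran from -0.88 to 1.59 for Fabp6, from -0.64 to 0.90 for Slc51b, from -1.48 to 0.48 for Slc51a and from 0.35 to 1.53 for Fgf15, with limma adjusted p of 0.938, 0.966, 0.887 and 0.482. CDCA replicate 3 stood apart in these genes: it had 93.2 TPM of Slc51b against 34.1 and 35.7 TPM in CDCA replicates 1 and 2, and 34.7 TPM of Fgf15 against 14.1 and 14.1 TPM. Without it the Fabp6 difference turned from 0.36 to -0.33 and that of Slc51b from 0.13 to -0.34. Slc51a moved from -0.50 to -1.05 and Fgf15 from 0.94 to 0.53, and Slc51a passed when DMSO replicate 1 was left out as well (limma adjusted p = 0.0416). Without CDCA replicate 1 the Slc51a difference was -0.06. Over the 68 genes the median CDCA minus CA difference was -0.19, against -0.003 over all genes tested. These genes were chosen for high CA values, which by itself lowers CDCA minus CA, so nothing is read from that median.

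Levels with DCA were higher than with CA in many of these genes. Between DCA and CA 1761 genes passed in limma (14.7%), 692 higher with DCA (5.79%) and 1069 lower (8.94%). Of the 68 genes higher with CA, 49 passed as higher with DCA than with CA, with a median difference of 0.61 against -0.05 over all genes tested. The CA libraries enter both comparisons. Fabp6 was at 1481, 1653 and 1100.0 TPM with DCA (DCA minus CA 2.61, CI 1.38 to 3.85, limma adjusted p = 0.0165) and Slc51b at 149, 155 and 127 TPM (1.67, CI 0.90 to 2.44, limma adjusted p = 0.0126). All DCA libraries were above all CA libraries in both. Both lost the call without CA replicate 2, at 2.26 and 1.44 (limma adjusted p = 0.063 and 0.0529), and without DCA replicate 1 or 2. Scd1 was at 441, 460.0 and 395 TPM with DCA (1.57, CI 1.30 to 1.84, limma adjusted p = 6.1e-05). Slc51a differed by 1.02 (CI 0.04 to 2.01, limma adjusted p = 0.149) but passed when just the 6 CA and DCA libraries were fitted and with CDCA replicate 3 and DMSO replicate 1 left out (limma adjusted p = 0.00658 and 0.00703). Akr1d1 differed by -0.25 (CI -0.68 to 0.19, limma adjusted p = 0.443). Genes with DCA minus CA estimates near 0 included Paqr8 (0.09), Bcl2l15 (0.06) and Sdr39u1 (-0.02), none of which passed.

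How many genes passed between CA and DMSO depended on single libraries. Of the 69 genes 2 still passed without CA replicate 1, 16 without CA replicate 2 and 2 without CA replicate 3. For DMSO replicates 1, 2 and 3 the numbers were 64, 9 and 40. Fabp6 and Slc51b were the 2 genes that passed in all 15 alternative fits run, and each of the other 67 lost its call in at least 1. All 69 kept the sign of their difference in all 15. Their CA and DMSO libraries did not overlap, so leaving out libraries could not turn the sign, and nothing is read from this. After removal of mitochondrial and rRNA rows and rescaling, 40 genes were higher and 6 lower, against 68 and 1, and the median over all genes moved from 0.03 to -0.04. In that fit the medians were 0.14 for the oxidoreductases, 0.12 for cholesterol genes, 0.12 for fatty acid oxidation, 0.08 for the integrated stress response and 0.07 for the chaperones of the endoplasmic reticulum. Those of the stem cell, S phase and mitosis lists were -0.51, -0.46 and -0.32, against -0.42, -0.37 and -0.24. Without DMSO replicate 1, genes that had not passed did so, among them Acox2, Krt20, Trib3, Cdkn1a and Zg16 (limma adjusted p = 0.0398, 0.0353, 0.0179, 0.0379 and 0.0379), and 172 genes were higher and 21 lower. With CDCA replicate 3 left out as well, 618 were higher and 348 lower, so the nearly one-sided count of 68 and 1 did not hold there. CA replicate 2 was the lowest CA library in 51 of the 68 genes that rose, against 44.2% of all genes tested, and DMSO replicate 1 the highest DMSO library in 42, against 19.2% of all genes tested.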

How the data were processed

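Per library, the authors deposited a table of 32587 gene symbols, each with a TPM value. No label names the unit, which was inferred because the values are fractional and their sums nearly equal. The submitters' processing notes list Salmon 1.8.0 and build GRCm39. The annotation, strand setting and summing to genes: not given in the sources used here. Libraries were made from poly(A) RNA with dUTP strand marking, per the labels' protocols. TPM keeps no read depth, so no counting interval can be given.

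Groups came from the sample labels. Rows that reached 1 TPM in 3 or more of the 12 libraries were tested as log2(TPM + 1), with a pseudocount of 1. The 4 group means were estimated from all 12 libraries in limma 3.58.1 (R 4.3.3), using its trend and robust options, two-sided tests and Benjamini-Hochberg adjustment over 11952 rows, at 0.05. The fit was tested on simulated data. Of 934 genes in 46 lists, 932 had a row and 776 were tested. In the files 13 rows are mitochondrially encoded and 2 are rRNA. Exact zeros occurred in 4 of the 4802 rows with a mean of at least 20 TPM.

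The comparison, the gene lists and the tests were chosen with earlier results of these data known. Genes were named if they were among the 25 largest rises or 10 largest falls past the threshold without overlap of libraries and averaging 1 or more in log2(TPM + 1), if they passed and were in a list, if they were in a short set of bile acid and cell type genes, or if they were among the 5 members of a list with the smallest p. Other genes past the threshold, such as Scd1, Gadd45a, Paqr8 and H2-Q10, were named after their values were seen. Promoters came from RefSeq tables on GRCm38.p6 by gene symbol. Alternatives were another filter, scaling, pseudocount, moderation or set of libraries, the replicate number as a block, removal of mitochondrial and rRNA rows, and leaving out libraries. CDCA replicate 3 and DMSO replicate 1, which were also left out together, stood apart from their groups in these same data. Passes gained without them are therefore no independent support.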

Additional observations from a re-analysis of the deposited data

How the results depend on the processing

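The number of genes past the threshold between CA and DMSO, 69, was 26 without the filter, 31 under median-ratio scaling, 33 when limma's trend and robust options were off, 261 with CDCA replicate 3 left out (248 higher and 13 lower) and 966 with CDCA replicate 3 and DMSO replicate 1 left out (618 higher and 348 lower). It ranged from 2 to 193 with single libraries of the compared groups left out: 3, 16 and 2 without CA replicates 1, 2 and 3, and 193, 10 and 74 without DMSO replicates 1, 2 and 3. With a pseudocount of 0.1 it was 77, all higher, in a fit of the 6 libraries compared 46, and after removal of mitochondrial and rRNA rows 46. Between CDCA and CA, 4 genes passed, 2 in a fit of the 6 libraries, 7 without mitochondrial and rRNA rows, 440 with CDCA replicate 3 and DMSO replicate 1 left out, and 3 to 34 with single libraries left out, the highest without CDCA replicate 3. Between DCA and CA, 1761 passed, 3414 in a fit of the 6 libraries, 2725 without mitochondrial and rRNA rows, 2830 with CDCA replicate 3 and DMSO replicate 1 left out, and 572 to 1107 with single libraries left out. With median-ratio scaling 1275 were higher and 1257 lower with DCA, against 692 and 1069.

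CDCA minus CA reversed for Fabp6, to -0.33 without CDCA replicate 3, with DMSO replicate 1 left out or not (range -0.33 to 0.77 with single libraries left out), and for Slc51b, to -0.34 in the same settings and -0.11 without CA replicate 2 (range -0.34 to 0.38). Paired by replicate number, with the number as a block, 49 genes passed between CA and DMSO, 48 higher and 1 lower. No shared effect of the number was seen. Same-numbered CA and DMSO libraries correlated at -0.03 to 0.07 in their deviations, and 2 of the 6 libraries correlated best with their own number. With 3 libraries per group this cannot exclude that libraries were prepared in matched sets, and the labels do not say. The causes of these changes were not tested beyond the number of libraries or rows in each fit. Since the depth is unknown, so is the counting error of low values.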
